A study of Mus musculus with 8 samples.

Results

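Open chromatin at crystallin genes was examined in retinal ganglion cells (RGCs) from injured mouse retina. The 10 genes were chosen by name: Cryaa, Cryab, Cryba1, Cryba2, Cryba4, Crybb1, Crybb2, Crybb3, Crygs and Crygn, out of 21896 protein-coding genes in the annotation. The data were lists of peaks from ATAC-seq, in which a transposase cuts DNA that is not packed away by nucleosomes and adds sequencing adapters. Merging peaks of the 8 lists wherever they overlapped by 1 bp or more gave 189914 regions, and 45 of these overlapped a crystallin gene or the 10 kb on either side of it. These 45 regions are numbered by chromosome and position.

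All mice were C57BL/6J, adults by the default of the study's methods. AAV2 encoding GFP (the control, 3 samples), Ezh2 (3 samples) or Ezh2-Y726D (2 samples) was injected into the vitreous. Every eye then had an optic nerve crush (ONC) 2 weeks later and was taken 3 days after ONC, so the lists hold no uninjured retina. RGCs were sorted from dissociated retina by an antibody to CD90.2 (Thy1), a surface protein that T cells carry too, with 50000 cells per library. Virus given by this route reaches most RGCs but is not restricted to them, and neither the labels nor the methods say how many mice made up a library. The p-values therefore measure the spread between these samples, which may in part be technical. In a sorted bulk sample, fewer cells with an open site and less opening per cell cannot be told apart.

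Crystallins are the abundant soluble proteins of the lens. The α-crystallins, encoded by Cryaa and Cryab, are small heat shock proteins that hold unfolding proteins in solution, whereas the β- and γ-crystallins share a common fold and pack lens fibre cells densely. Several crystallin genes are also transcribed outside the lens, in retinal neurons and glia, and crystallin RNAs of the retina are known to change after injury. Ezh2 is the methyltransferase of Polycomb repressive complex 2 and places the repressive mark H3K27me3 on histones, and Ezh2-Y726D is a catalytically dead form of it.

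Promoter sequence was available for 9 of the 10 genes, all but Cryab, from the RefSeq annotation of GRCm38.p6. Each sequence runs 5′ to 3′ on the gene's own strand, from 250 bases before to 50 bases after the start site. The promoters of Cryba2 (chr1:74893094-74893393, minus strand) and Crybb3 (chr5:113081535-113081834, minus strand) are shown because their start sites lay in a peak in all 8 lists, that of Crybb1 (chr5:112255570-112255869, plus strand) because its peak differed between groups, and that of Cryaa (chr17:31677681-31677980, plus strand) because its start site lay in no peak. Capitals mark matches to TGCTGA (an element recognised by Maf factors, which drive lens genes), TGANTCA (the AP-1 motif) or TATAAA (the TATA box), read on both strands, so that TCAGCA is TGCTGA on the other strand.
Cryba2: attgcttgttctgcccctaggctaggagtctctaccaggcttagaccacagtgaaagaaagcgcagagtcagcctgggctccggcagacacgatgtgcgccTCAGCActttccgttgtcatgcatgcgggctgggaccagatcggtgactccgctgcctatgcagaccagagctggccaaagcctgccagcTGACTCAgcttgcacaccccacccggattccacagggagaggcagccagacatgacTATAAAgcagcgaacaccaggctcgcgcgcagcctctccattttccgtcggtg
Crybb3: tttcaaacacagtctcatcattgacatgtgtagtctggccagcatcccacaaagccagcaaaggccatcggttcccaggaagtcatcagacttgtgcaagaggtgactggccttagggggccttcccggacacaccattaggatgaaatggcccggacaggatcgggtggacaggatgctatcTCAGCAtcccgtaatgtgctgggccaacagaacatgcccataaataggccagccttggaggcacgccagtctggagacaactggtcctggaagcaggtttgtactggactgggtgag
Crybb1: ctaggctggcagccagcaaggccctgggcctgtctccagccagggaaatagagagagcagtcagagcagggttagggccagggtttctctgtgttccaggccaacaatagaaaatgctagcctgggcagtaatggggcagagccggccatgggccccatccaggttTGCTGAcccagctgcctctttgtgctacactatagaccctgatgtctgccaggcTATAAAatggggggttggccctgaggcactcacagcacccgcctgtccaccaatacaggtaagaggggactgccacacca
Cryaa: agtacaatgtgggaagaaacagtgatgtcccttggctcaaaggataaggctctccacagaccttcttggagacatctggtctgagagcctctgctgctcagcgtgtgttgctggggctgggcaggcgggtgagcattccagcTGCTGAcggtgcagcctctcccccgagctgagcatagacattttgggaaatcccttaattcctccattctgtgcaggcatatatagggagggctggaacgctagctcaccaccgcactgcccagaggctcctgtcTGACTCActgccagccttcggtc

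The Maf element TGCTGA occurred in 8 of the 9 crystallin promoters, all but that of Crybb2, and in 19.5% of 32851 promoters of the same length in the annotation. Counted from the start site, the match began at −149 in Cryba2, −67 in Crybb3, −84 in Crybb1 and −108 in Cryaa. TGANTCA occurred in 4 of 9 crystallin promoters (Cryba2, Crygn, Crygs and Cryaa) against 7.81% of all promoters, and in Crygn and Crygs it overlapped a TGCTGA match. TATAAA occurred in 4 of 9 (Cryba2, Crybb1, Cryba1 and Crygs) against 13.6%. It began at −30 in Crybb1, −23 in Cryba1 and −25 in Crygs, but at −3 in Cryba2, where it ran across the start site. The heat shock element GAANNTTC occurred in 0 of 9 against 7.86%. No match says only that these letters are not in the window, and a match is not evidence that a factor was bound.

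The lists held from 112939 to 135895 peaks. Read numbers are not part of them, so depth is unknown and no interval for counting error can be given. Peak strength was therefore read as the fold of a peak over local background, as deposited, and as the percentile of that fold within the same list, where stronger peaks rank higher; percentiles below are in % and values follow replicate order. Marker genes with a peak within 1 kb of a gene end were counted as a check of the cells. RGC markers had such a peak for 9 to 10 of 10 genes in every list, and Müller glia markers for 9 of 10. Rod markers numbered 10 of 10 in the GFP samples, 8 to 9 in the Ezh2 samples and 8 to 10 in the Ezh2-Y726D samples, amacrine markers 8 to 9 of 10 and endothelial markers 5 to 6 of 10. T cell markers numbered 9 to 10 of 10 in the GFP samples, 10 in the Ezh2 samples and 3 to 4 in the Ezh2-Y726D samples, and microglial markers 5 to 8, 7 to 8 and 3.

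Most crystallin regions were shared by every list. Of the 45 regions, 27 (60.0%) held a peak in all 8 lists, against 36.6% of all merged regions. Another 13 held a peak in 2 to 7 lists and 5 (11.1%) in 1 list, against 17.2% of all regions in 1 list. Crystallin regions had a median width of 819 bp, whereas that of all regions was 559 bp, and the median percentile of those in all lists was 71.8% against 67.3%. No test was made of these shares. The crystallin regions were limited to a gene and the 10 kb around it, whereas all merged regions had no such limit.

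The number of crystallin regions with a peak was 34, 34 and 37 in the GFP samples, 34, 35 and 38 in the Ezh2 samples and 33 and 32 in the Ezh2-Y726D samples. The ranges of the GFP and Ezh2 samples overlapped, and both Ezh2-Y726D samples lay below all others. The means were 35.0 ± 1.73 (SD, n = 3) in GFP, 35.67 ± 2.08 (SD, n = 3) in Ezh2 and 32.5 ± 0.707 (SD, n = 2) in Ezh2-Y726D. Ezh2-Y726D minus GFP was −2.5 (two-sided exact permutation p = 0.3, where 0.1 is the smallest these samples allow), and it became 0.167 (p = 1.0) under a required cover of 0.5 of each region. Ezh2 minus GFP was 0.667 (exact p = 0.7) and became −1 with lists of equal length and −0.5 without Ezh2 replicate 3. The lists held 115710, 112939 and 133674 peaks in the GFP samples, 126271, 127547 and 135895 in the Ezh2 samples and 124666 and 128728 in the Ezh2-Y726D samples. With lists of equal length, Ezh2-Y726D minus GFP was −2 (exact p = 0.1). Ezh2 minus Ezh2-Y726D was 3.17 (exact p = 0.2) and became 1 (exact p = 0.5) in that setting. Beyond that setting, the part of list length in these counts was not tested.

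**Figure D1:**
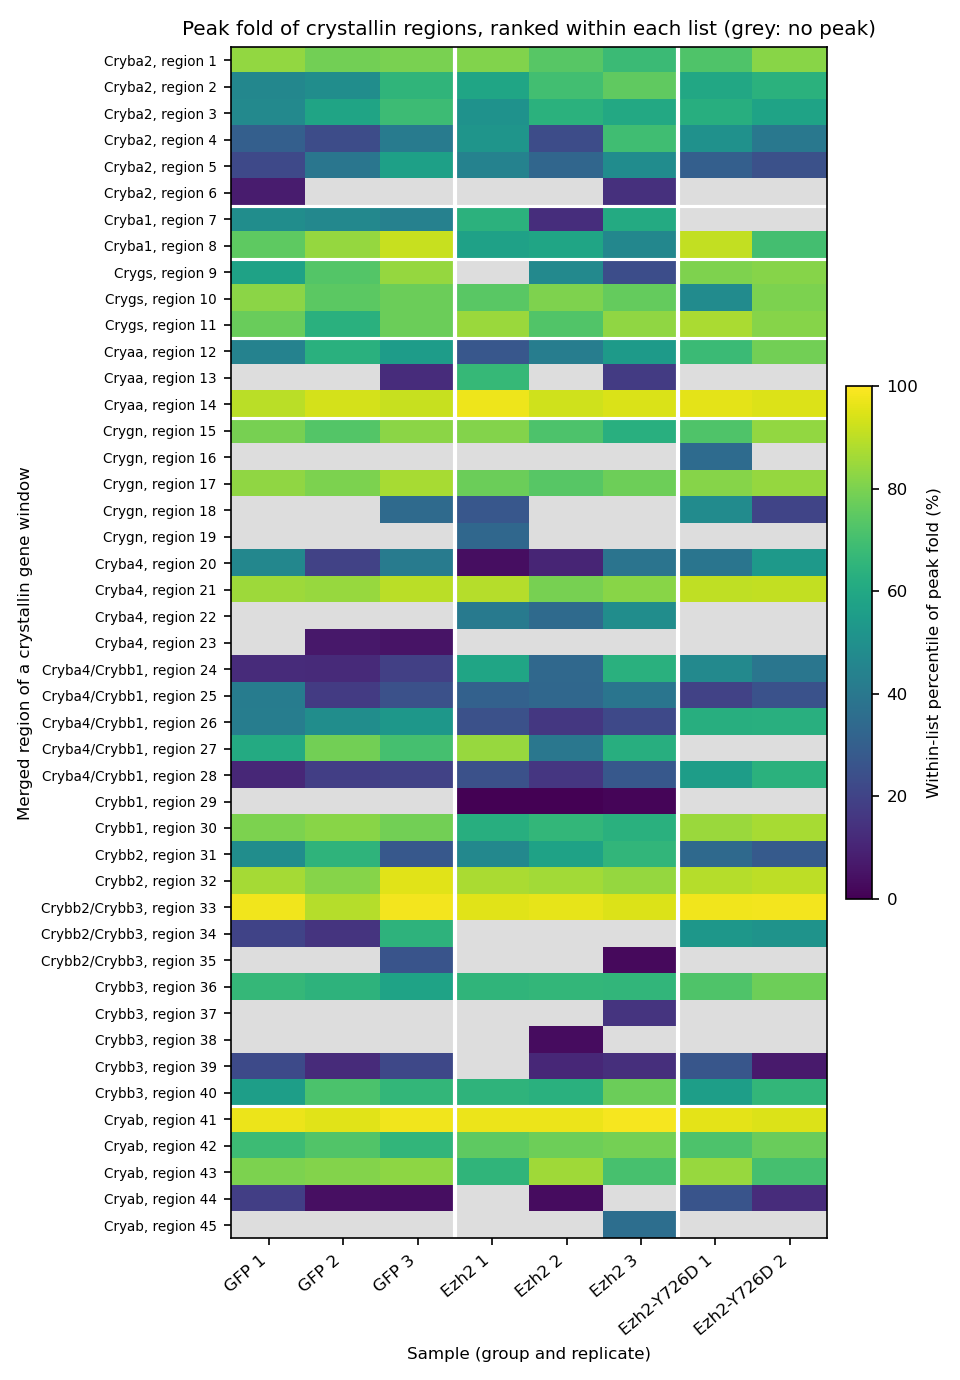
Within-list percentile of peak fold in % (colour) for the 45 crystallin regions (rows, named by the gene or genes whose window they lie in) in the 8 samples (columns, by group and replicate), with grey where a sample had no peak. Of the rows, 27 are coloured in all 8 columns, and the rows of regions 14, 33 and 41 hold the brightest colours in every group.

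Few crystallin start sites lay in a peak of every list. Those of Cryba2 and Crybb3 lay in a peak in all 8 lists, which is 2 of 9 (22.2%) against 57.8% of 21262 protein-coding start sites. The start site of Crybb1 lay in a peak in 6 lists, all but Ezh2 replicates 1 and 3, and that of Crygn only in GFP replicate 3. The remaining 5 of 9 (55.6%), those of Cryaa, Cryba1, Cryba4, Crybb2 and Crygs, lay in no peak of any list, against 34.3% of all start sites. With 9 genes, these shares are given as a description.

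The groups were compared in 2 ways. Regions with a peak in all 8 lists were ranked by fold within each list, ranks were turned into normal scores (units of SD of a normal distribution over the 69493 such regions), and group means were compared with limma in 1 fit over all 8 samples. Calls were made at an adjusted p under 0.05, after the Benjamini-Hochberg method over all 69493 regions. Other regions were compared by presence: a gained region held a peak in every sample of the first group and in none of the second, and a lost region the reverse. The comparisons of Ezh2 and of Ezh2-Y726D with GFP share the same GFP samples.

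Ezh2 against GFP asked what added Ezh2 changed in injured RGCs. In the crystallin windows, 1 region inside Cryba4 (region 24) was called higher and 1 over the Crybb1 start site (region 26) was called lower. These are 2 of 27 regions (7.41%), and limma called 4.44% of all regions in either direction (1.59% higher and 2.84% lower). The median difference over the 27 regions was −0.03 and that over all regions 0.01, with 13 regions above 0 and 14 below. By presence, 2 of 45 regions were gained (4.44%, background 2.72%) and 1 was lost (2.22%, background 1.68%).

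Ezh2-Y726D against GFP asked the same of the form without catalytic activity. Limma called 1 of 27 crystallin regions higher (3.7%), beyond the 3′ end of Crybb1 (region 28), and 0 lower, where 0 had an unadjusted p under 0.05. Over all regions it called 8.21% in either direction, 3.55% higher and 4.65% lower. The median difference over the 27 regions was 0.16 against −0.01 over all regions. By presence, 0 of 45 regions were gained (background 4.77%) and 2 were lost (4.44%, background 4.72%).

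Ezh2 against Ezh2-Y726D compared the active with the dead enzyme. Here 4 of 27 crystallin regions (14.8%) were called lower in Ezh2 (regions 12, 26, 28 and 30), of which 3 lay around Crybb1, and 0 were called higher, where 1 had an unadjusted p under 0.05. Limma called 14.0% of all regions in either direction, 6.96% lower and 7.0% higher, so the share of crystallin regions called was near that of all regions. The median difference was −0.10 against 0.02 over all regions. By presence, 4 of 45 regions were gained (8.89%, background 8.96%) and 1 was lost (2.22%, background 6.14%).

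The groups did not overlap in rank in 6 of 27 crystallin regions for Ezh2 against GFP (22.2%), where 24.0% of all regions did not overlap. The count was 11 of 27 (40.7%) for Ezh2-Y726D against GFP, with a background of 41.5%, and 15 of 27 (55.6%) for Ezh2 against Ezh2-Y726D, with a background of 47.5%.

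**Figure D2:**
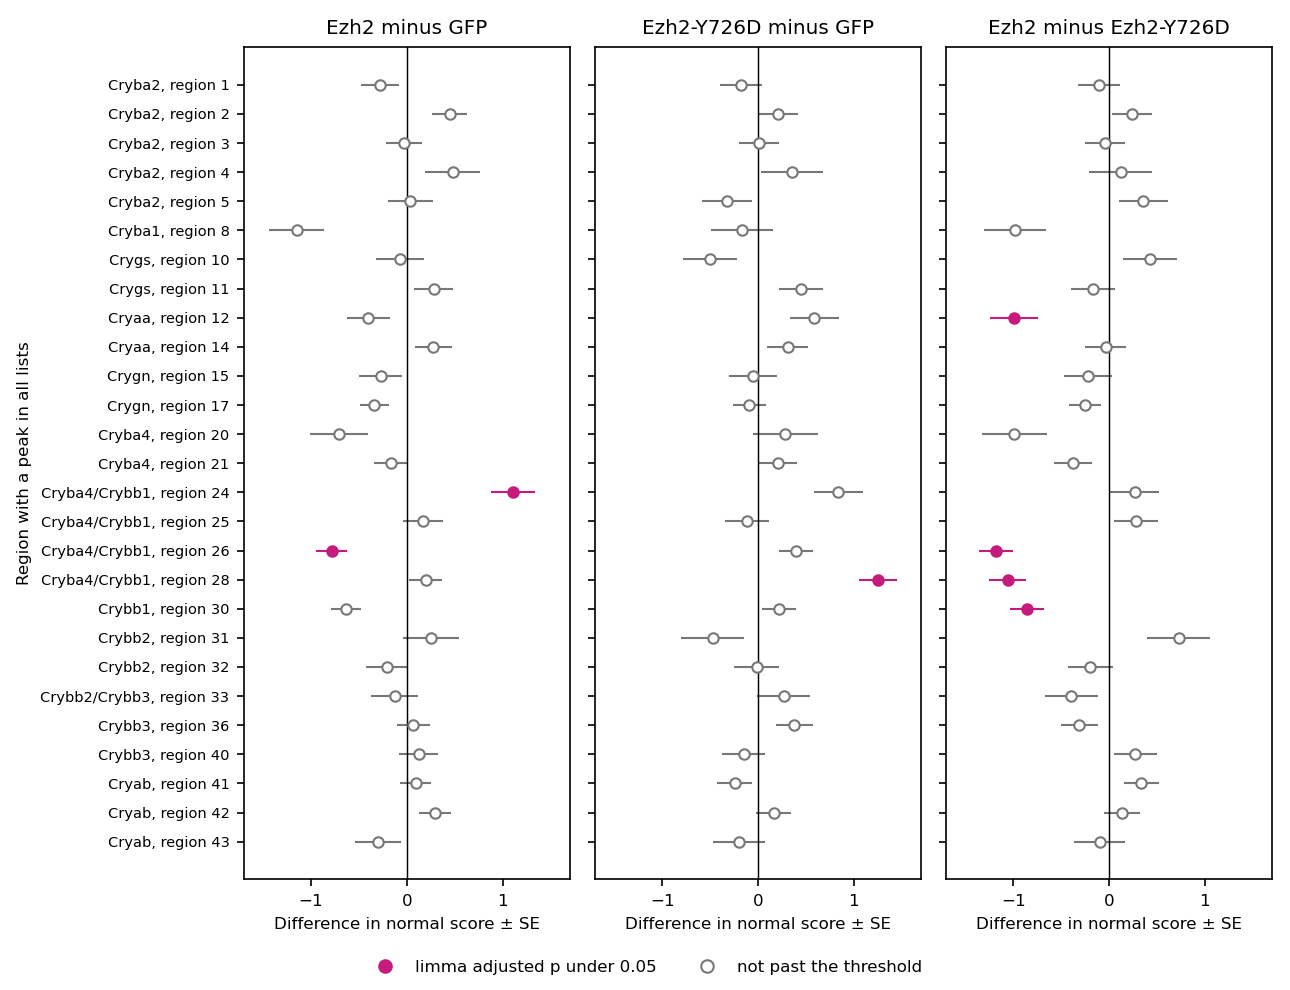
Difference in mean normal score of peak fold ± SE (horizontal axis) for each of the 27 crystallin regions with a peak in all 8 lists (vertical axis), in the 3 comparisons, with filled points where limma's adjusted p was under 0.05. Filled points number 2, 1 and 4 from left to right, and 6 of these 7 belong to the windows of Cryba4 and Crybb1. Those windows hold 6 and 5 of the 27 regions, with some in both.

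The α-crystallin genes each had a strong peak that did not lie at the gene itself. Near Cryaa the strongest was region 14 (chr17:31685334-31686615), 3604 bp beyond the 3′ end of the gene, with percentiles of 89.8, 93.7 and 91.6 in the GFP samples, 97.4, 92.6 and 94.4 in the Ezh2 samples and 96.0 and 94.9 in the Ezh2-Y726D samples. Its folds ran from 8.94 to 12.3 over the 8 samples. All 8 samples placed it in the upper part of their lists, and no comparison passed the threshold, with differences of 0.28, 0.31 and −0.03 for Ezh2 minus GFP, Ezh2-Y726D minus GFP and Ezh2 minus Ezh2-Y726D, the order kept below (limma, adjusted p = 0.476, 0.414 and 0.939).

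Upstream of Cryaa, region 12 (chr17:31670013-31670569) was centred 7.64 kb before the start site. It had percentiles of 44.3, 63.5 and 55.4 in the GFP samples, 27.3, 42.4 and 54.5 in the Ezh2 samples and 68.1 and 78.6 in the Ezh2-Y726D samples. As fold over background, the peaks measured 4.47, 5.97 and 5.07 in the GFP samples, 3.91, 4.39 and 4.8 in the Ezh2 samples and 6.49 and 7.52 in the Ezh2-Y726D samples. Both Ezh2-Y726D samples lay above every GFP and Ezh2 sample, while GFP and Ezh2 overlapped. Ezh2 was lower than Ezh2-Y726D, with a difference of −0.99 ± 0.25 (SE; adjusted p = 0.0291) in limma, and the comparisons with GFP did not pass (−0.40 and 0.59, adjusted p = 0.372 and 0.186). Region 12 was not tested at −log10 q of at least 5. The call held in 7 of 14 alternatives and was not made without Ezh2 replicate 1 or 2 (adjusted p = 0.0906 and 0.062) and without Ezh2-Y726D replicate 1 or 2 (adjusted p = 0.0726 and 0.179). The remaining region of the window, region 13 (chr17:31680451-31680787) inside Cryaa, held a peak only in GFP replicate 3 and Ezh2 replicates 1 and 3, at percentiles of 12.6%, 67.1% and 17.5% and folds of 3.17, 6.11 and 3.27.

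The window of Cryab, the more widely expressed α-crystallin, held 5 regions, 3 of them in all lists. Region 41 (chr9:50738900-50739895), 6056 bp outside the gene at the ends of Dixdc1 and 2310030G06Rik, was among the strongest crystallin regions, with percentiles of 97.0, 95.7 and 97.9 in the GFP samples, 97.2, 96.9 and 98.5 in the Ezh2 samples and 95.8 and 94.9 in the Ezh2-Y726D samples. Its folds lay between 11.1 and 12.3 in the 8 samples. All Ezh2 samples lay above both Ezh2-Y726D samples, and GFP overlapped Ezh2, but none of its differences passed (0.09, −0.24 and 0.33, limma adjusted p = 0.82, 0.454 and 0.253).

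At an end of the annotated Cryab span, region 42 (chr9:50745920-50747389) also covered the start site of 2310030G06Rik, so its signal cannot be assigned to either gene. It had percentiles of 68.4, 73.0 and 65.6 in the GFP samples, 75.4, 77.9 and 79.0 in the Ezh2 samples and 72.3 and 77.1 in the Ezh2-Y726D samples. The folds were 5.94, 6.83 and 5.77 in the GFP samples, 6.93, 7.03 and 6.81 in the Ezh2 samples and 6.9 and 7.29 in the Ezh2-Y726D samples. The 3 Ezh2 samples were all above the 3 GFP samples, but the difference of 0.30 ± 0.17 (SE; adjusted p = 0.366) was not called. Region 43 (chr9:50752463-50753611), inside the annotated Cryab span and within 1 kb of the small heat shock gene Hspb2, ranged from 65.4% to 85.9%. It had no called difference either. No start site was available for Cryab, so whether a region of its window covers it was not determined. Region 44, inside Cryab, was weak (3.22% to 25.9%) and was missing from Ezh2 replicates 1 and 3, and region 45 held a peak in Ezh2 replicate 3 alone, at 36.1%.

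Among the β-crystallin genes, which encode structural proteins of the lens, Cryba2 had 6 regions, 5 of them with a peak in all 8 lists. Its strongest was region 1 (chr1:74880771-74881488), 8446 bp from the gene, at percentiles of 83.6, 78.5 and 79.8 in the GFP samples, 80.9, 74.1 and 68.2 in the Ezh2 samples and 72.5 and 82.4 in the Ezh2-Y726D samples. The corresponding folds were 7.74, 7.54 and 7.2 in the GFP samples, 7.62, 6.6 and 5.74 in the Ezh2 samples and 6.94 and 8.03 in the Ezh2-Y726D samples. Region 3 (chr1:74892659-74893802) covered the start site and had percentiles of 47.3, 58.3 and 68.7 in the GFP samples, 50.8, 63.7 and 60.2 in the Ezh2 samples and 62.8 and 57.9 in the Ezh2-Y726D samples. The folds were 4.64, 5.6 and 6.07 in the GFP samples, 4.95, 5.65 and 5.18 in the Ezh2 samples and 5.98 and 5.57 in the Ezh2-Y726D samples. In both regions the 3 groups overlapped, and the start site region gave differences of −0.03, 0.01 and −0.05 (limma, adjusted p = 0.952, 0.981 and 0.913). The other 3 shared regions ranged from 22.0% to 75.4%, and region 6 was a weak peak of GFP replicate 1 and Ezh2 replicate 3, at 7.76% and 14.0%.

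Cryba1, which encodes both βA3- and βA1-crystallin, had 2 regions and a start site in no peak. Region 8 (chr11:77728505-77729323) lay 3212 bp upstream of the gene and had percentiles of 75.0, 84.2 and 91.8 in the GFP samples, 57.4, 59.0 and 46.3 in the Ezh2 samples and 90.9 and 70.1 in the Ezh2-Y726D samples. Its folds were 6.59, 8.41 and 9.5 in the GFP samples, 5.37, 5.31 and 4.36 in the Ezh2 samples and 10.0 and 6.55 in the Ezh2-Y726D samples. All 3 Ezh2 samples lay below all GFP and Ezh2-Y726D samples. Ezh2 differed from GFP by −1.15 ± 0.29 (SE; adjusted p = 0.0521) and from Ezh2-Y726D by −0.98 ± 0.32 (SE; adjusted p = 0.0686) in limma, both just short of the threshold, and −0.17 for Ezh2-Y726D against GFP (adjusted p = 0.8). Ezh2 against GFP passed in 4 of 15 alternatives, among them without Ezh2-Y726D replicate 1 (adjusted p = 0.0372) and without Ezh2-Y726D replicate 2 (adjusted p = 0.0379). Ezh2 against Ezh2-Y726D passed in 1 of 15, without Ezh2-Y726D replicate 2 with a difference of −1.49 (adjusted p = 0.0347). Without Ezh2-Y726D replicate 1 that difference was −0.49 (adjusted p = 0.432).

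The second Cryba1 region was compared by presence. Region 7 (chr11:77717246-77717646), 968 bp beyond the 3′ end of Cryba1 and inside Nufip2, had percentiles of 49.1, 46.7 and 43.9 in the GFP samples, 64.1, 12.9 and 61.3 in the Ezh2 samples and no peak in the Ezh2-Y726D samples. In fold over background, these were 4.71, 4.88 and 4.43 in the GFP samples, 5.86, 3.23 and 5.23 in the Ezh2 samples and no peak in the Ezh2-Y726D samples. It was therefore lost in Ezh2-Y726D against GFP and gained in Ezh2 against Ezh2-Y726D. Over all regions, 3.61% had a peak in all GFP and Ezh2 samples and in no Ezh2-Y726D sample.

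Cryba4 and Crybb1 lie next to each other on chromosome 5 in opposite orientation, and their annotated spans overlap, so a region there can belong to both windows. Cryba4 had 9 regions, 6 of them in all lists, and Crybb1 had 7, with 5 in all lists. Crybb1 is known to be transcribed by mouse microglia as well as by the lens. Of the 5 crystallin regions that limma called in any comparison, 4 lay within this locus.

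**Figure D3:**
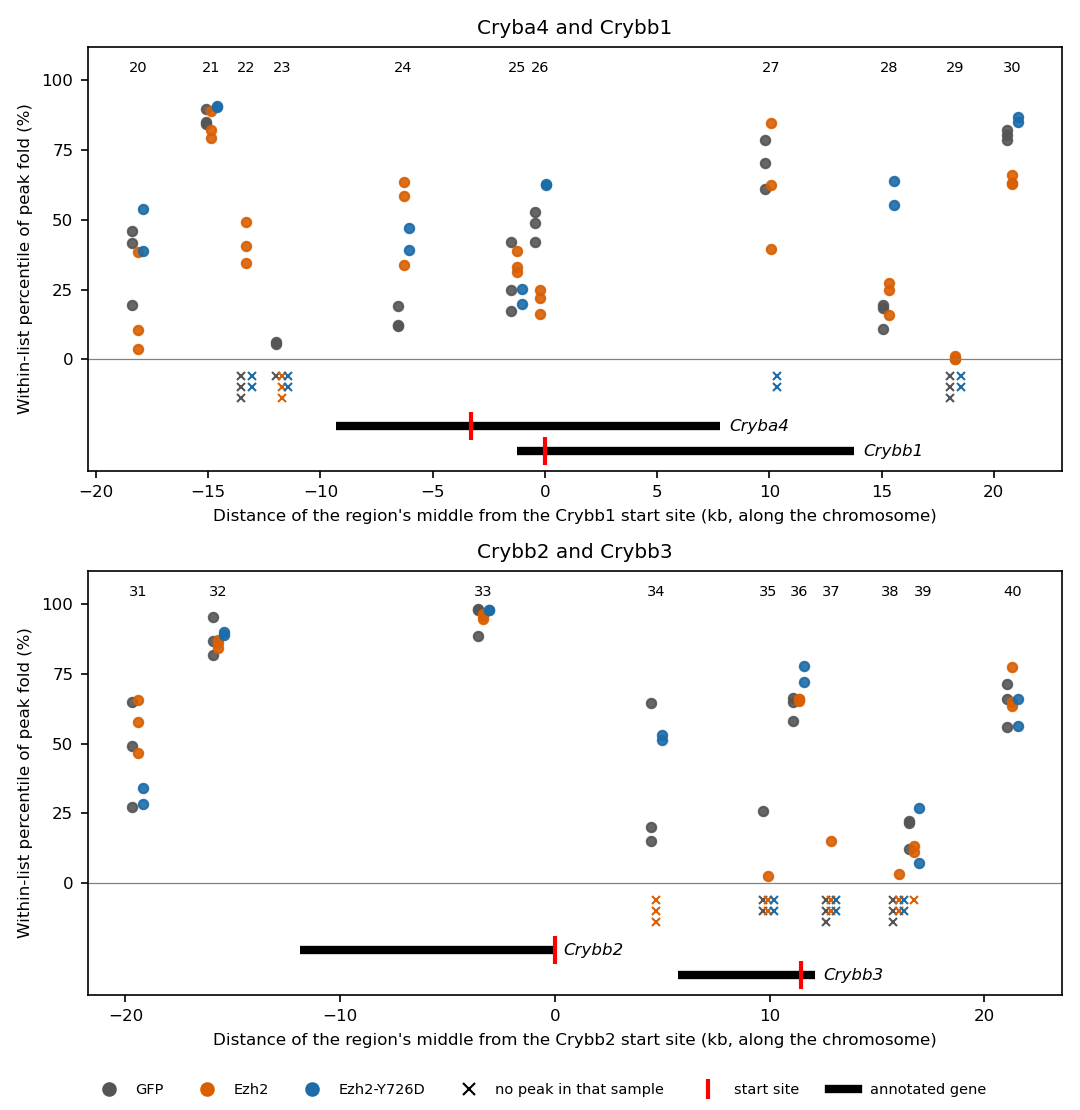
Within-list percentile of peak fold in each sample (points, coloured by group, with crosses below 0 for samples without a peak) against the distance of each numbered region from the Crybb1 start site (upper panel) or the Crybb2 start site (lower panel), in kb along the chromosome, with annotated genes as black bars and their start sites in red. At the Crybb1 start site (region 26) the Ezh2 points lie between 16.3% and 24.9%, below GFP at 42.2% to 53.0% and Ezh2-Y726D at 62.6% and 62.9%, whereas region 33 inside Crybb2 lies at 88.8% or above in every sample.

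At the Crybb1 start site, region 26 (chr5:112255156-112256066) had percentiles of 42.2, 49.0 and 53.0 in the GFP samples, 24.9, 16.3 and 21.9 in the Ezh2 samples and 62.6 and 62.9 in the Ezh2-Y726D samples. Its folds were 4.4, 4.99 and 4.87 in the GFP samples, 3.85, 3.39 and 3.47 in the Ezh2 samples and 5.95 and 5.88 in the Ezh2-Y726D samples. The groups did not overlap at all: Ezh2 was lowest, GFP in between and Ezh2-Y726D highest. Ezh2 was lower than GFP, with a difference of −0.78 ± 0.16 (SE; adjusted p = 0.0285) and lower than Ezh2-Y726D, with one of −1.18 ± 0.18 (SE; adjusted p = 0.00336) in limma, while Ezh2-Y726D and GFP differed by 0.40 (adjusted p = 0.209).

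The difference between Ezh2 and Ezh2-Y726D at region 26 was called in 14 of 14 alternatives. That between Ezh2 and GFP was called in 7 of 14. It was not called without GFP replicate 1, 2 or 3 (adjusted p = 0.0503, 0.0855 and 0.0687) and without Ezh2 replicate 2 or 3 (adjusted p = 0.08 and 0.0809), and the size of the difference stayed between −0.97 and −0.69. The start site base itself fell outside the peaks of Ezh2 replicates 1 and 3. The promoter printed above for Crybb1 lies inside this region.

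Inside Cryba4, region 24 (chr5:112249109-112249935) had percentiles of 12.3, 11.9 and 19.1 in the GFP samples, 58.7, 33.7 and 63.7 in the Ezh2 samples and 46.9 and 39.2 in the Ezh2-Y726D samples. The folds were 3.27, 3.4 and 3.38 in the GFP samples, 5.43, 3.99 and 5.44 in the Ezh2 samples and 5.0 and 4.38 in the Ezh2-Y726D samples. All GFP samples lay below all Ezh2 and Ezh2-Y726D samples, which overlapped. Ezh2 was higher than GFP, with a difference of 1.11 ± 0.23 (SE; adjusted p = 0.0286) in limma. Ezh2-Y726D differed from GFP in the same direction by 0.84 ± 0.26 (SE; adjusted p = 0.0729), which was not called, and the difference between the active and dead enzyme was 0.27 ± 0.26 (SE; adjusted p = 0.534).

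The call for region 24 held in 7 of 13 alternatives. It was not called without GFP replicate 1, 2 or 3 (adjusted p = 0.0715, 0.0862 and 0.076) and without Ezh2 replicate 1 or 3 (adjusted p = 0.0733 and 0.0805), with differences of at least 0.97 throughout. Without Ezh2 replicate 2, Ezh2-Y726D against GFP was called as well (adjusted p = 0.0275).

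Beyond the 3′ end of Crybb1, region 28 (chr5:112270654-112271629) lay 1069 bp outside the gene, over the noncoding gene Gm46941. Its percentiles were 11.0, 18.4 and 19.5 in the GFP samples, 24.7, 16.0 and 27.5 in the Ezh2 samples and 55.5 and 63.9 in the Ezh2-Y726D samples. Its folds were 3.18, 3.68 and 3.42 in the GFP samples, 3.83, 3.37 and 3.63 in the Ezh2 samples and 5.48 and 6.02 in the Ezh2-Y726D samples. Both Ezh2-Y726D samples lay above all others, and GFP and Ezh2 overlapped. Ezh2-Y726D was higher than GFP, with a difference of 1.25 ± 0.20 (SE; adjusted p = 0.00686), and Ezh2 was lower than Ezh2-Y726D, with a difference of −1.06 ± 0.20 (SE; adjusted p = 0.00747) in limma. When peaks were ranked by −log10 p instead of fold, these became 0.35 (adjusted p = 0.133) and 0.33 (adjusted p = 0.14), so that the first was no longer called and the second turned its direction. The second was also not called without Ezh2-Y726D replicate 2 (adjusted p = 0.0575).

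Farther out, region 30 (chr5:112275944-112277328), the strongest region of the Crybb1 window, covered the start site of Tpst2 and lay 6359 bp from Crybb1. It had percentiles of 80.4, 82.4 and 78.6 in the GFP samples, 62.8, 66.2 and 63.4 in the Ezh2 samples and 85.0 and 86.8 in the Ezh2-Y726D samples. As fold over background, the peaks measured 7.27, 8.13 and 7.08 in the GFP samples, 5.77, 5.82 and 5.4 in the Ezh2 samples and 8.69 and 8.82 in the Ezh2-Y726D samples. The Ezh2 samples were lowest, and no group overlapped another. Ezh2 was lower than Ezh2-Y726D, with a difference of −0.86 ± 0.18 (SE; adjusted p = 0.0115) in limma, and Ezh2 against GFP, at −0.64 ± 0.16 (SE; adjusted p = 0.0502), missed the threshold. The call between Ezh2 and Ezh2-Y726D held in 13 of 15 alternatives and was not made without Ezh2-Y726D replicate 1 or 2 (adjusted p = 0.061 and 0.0724). Ezh2 against GFP passed in 3 of 15 alternatives. Ranked by −log10 p, the differences were −0.45 (adjusted p = 0.0291) and −0.32 (adjusted p = 0.099) against Ezh2-Y726D and GFP.

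**Figure D4:**
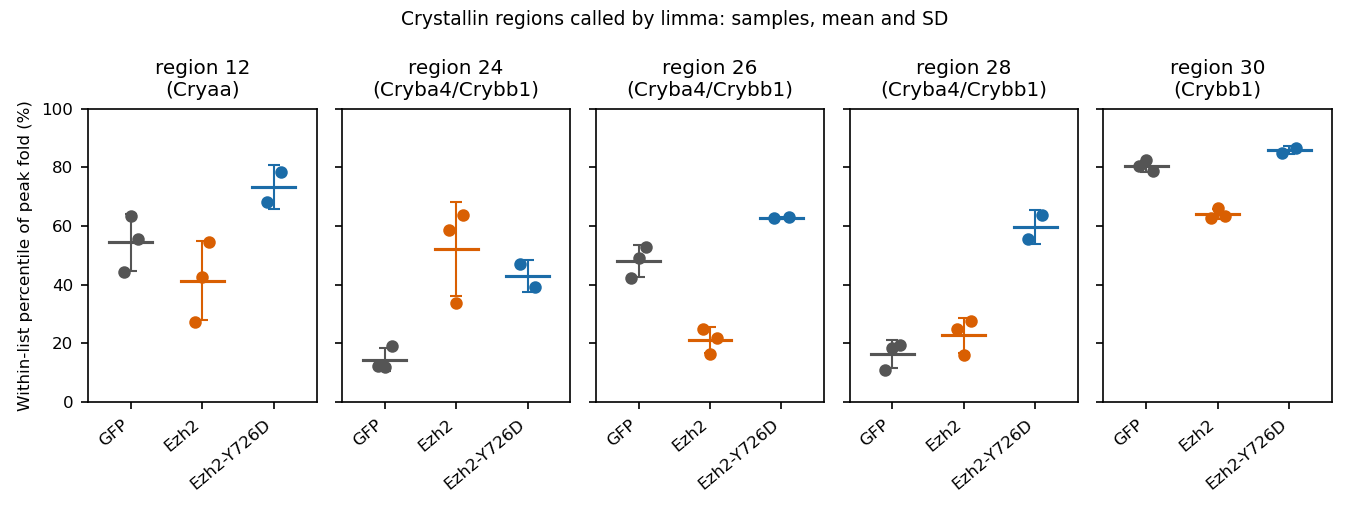
Within-list percentile of peak fold in % (vertical axis) in each sample (points) of the 3 groups, with the group mean (horizontal line) and SD (bar), for the 5 crystallin regions that limma called in at least 1 comparison. The Ezh2 points are below the Ezh2-Y726D points in regions 12, 26, 28 and 30, and the GFP points are the lowest in region 24.

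The Cryba4 and Crybb1 windows also held 3 of the 5 regions whose presence separated the groups. Region 22 (chr5:112242204-112242829), 3663 bp beyond the 3′ end of Cryba4, had a peak only in the Ezh2 samples, at percentiles of 40.7%, 34.5% and 49.1% and folds of 4.4, 4.06 and 4.53. Region 29 (chr5:112273895-112274326), 4310 bp beyond Crybb1, also had a peak only in the Ezh2 samples, at percentiles of 0.143%, 0.116% and 1.28% and folds of 1.98, 1.94 and 2.32. Region 29 was thus among the weakest peaks of each list, while region 22 was of middle strength. A peak in all Ezh2 samples and in no other was found in 1.98% of all regions.

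Region 27 (chr5:112265437-112266343), inside Crybb1, also had a peak in all Ezh2 samples and in no Ezh2-Y726D sample, but with a peak in all GFP samples. Its percentiles were 61.2, 78.8 and 70.4 in the GFP samples, 84.6, 39.7 and 62.6 in the Ezh2 samples and no peak in the Ezh2-Y726D samples. Its folds were 5.42, 7.59 and 6.18 in the GFP samples, 8.23, 4.26 and 5.31 in the Ezh2 samples and no peak in the Ezh2-Y726D samples. It was lost in Ezh2-Y726D against GFP and gained in Ezh2 against Ezh2-Y726D, as region 7 near Cryba1 was. The absence of region 27 from the Ezh2-Y726D samples went along with fewer microglial and T cell markers there: C1qb and Cx3cr1 of the microglial list, and Cd2, Cd8a, Cd8b1, Cd3g and Lat of the T cell list, had a peak in all GFP and Ezh2 samples and in no Ezh2-Y726D sample. Of the microglial list, Aif1 had no peak in any list, while P2ry12 lacked a peak only in the Ezh2 samples and Csf1r had one only there. The part of these cells in the Crybb1 result was not tested.

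The remaining regions of the locus gave no calls. Region 21 (chr5:112240605-112241307), 5185 bp from Cryba4 and the strongest of its window, had percentiles of 85.2, 84.6 and 89.7 in the GFP samples, 89.0, 79.4 and 82.3 in the Ezh2 samples and 90.5 and 90.9 in the Ezh2-Y726D samples. The folds were 8.01, 8.46 and 8.97 in the GFP samples, 9.09, 7.21 and 7.24 in the Ezh2 samples and 9.93 and 9.75 in the Ezh2-Y726D samples. Region 25 (chr5:112254064-112255079), 1.25 kb upstream of the Crybb1 start site, had percentiles of 42.1, 17.2 and 24.8 in the GFP samples, 31.2, 33.3 and 38.8 in the Ezh2 samples and 19.9 and 25.1 in the Ezh2-Y726D samples. The corresponding folds were 4.39, 3.59 and 3.6 in the GFP samples, 4.09, 3.95 and 4.03 in the Ezh2 samples and 3.75 and 3.88 in the Ezh2-Y726D samples. All Ezh2 samples lay above both Ezh2-Y726D samples, while GFP overlapped both groups. Region 20, 8372 bp from Cryba4, ranged from 3.76% to 54.1% and differed by −0.99 ± 0.34 (SE; adjusted p = 0.0815) between Ezh2 and Ezh2-Y726D, which was called only without Ezh2 replicate 3 (adjusted p = 0.0191). Region 23 was a weak peak of GFP replicates 2 and 3, at 6.31% and 5.42%.

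Crybb2 and Crybb3, a second pair of β-crystallin genes farther along chromosome 5, shared the strongest peak within any crystallin gene. Region 33 (chr5:113066280-113067296), inside Crybb2 and 3.33 kb downstream of its start site, had percentiles of 98.0, 88.8 and 98.3 in the GFP samples, 95.6, 96.4 and 94.7 in the Ezh2 samples and 98.0 and 98.1 in the Ezh2-Y726D samples. The folds were 12.4, 9.36 and 12.7 in the GFP samples, 11.3, 11.4 and 10.0 in the Ezh2 samples and 13.4 and 13.1 in the Ezh2-Y726D samples. Only GFP replicate 2 was below 94.7%, and none of the differences passed (−0.13, 0.27 and −0.39, limma adjusted p = 0.839, 0.601 and 0.378). The Crybb2 start site nonetheless lay in no peak, and its promoter was the only one of the 9 without any of the motifs searched.

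The start site of Crybb3 lay in region 36 (chr5:113081045-113081907), which had percentiles of 66.5, 64.8 and 58.0 in the GFP samples, 65.5, 66.2 and 65.9 in the Ezh2 samples and 72.3 and 77.8 in the Ezh2-Y726D samples. In fold over background, these were 5.83, 6.05 and 5.27 in the GFP samples, 5.96, 5.82 and 5.57 in the Ezh2 samples and 6.9 and 7.42 in the Ezh2-Y726D samples. The 2 Ezh2-Y726D samples lay above all others, but no difference was called (0.07, 0.38 and −0.31, limma adjusted p = 0.885, 0.263 and 0.319). Between the 2 genes, region 34 (chr5:113074607-113075084), 755 bp beyond the 3′ end of Crybb3, had percentiles of 20.0, 15.0 and 64.5 in the GFP samples, no peak in the Ezh2 samples and 53.1 and 51.4 in the Ezh2-Y726D samples. The folds were 3.53, 3.53 and 5.7 in the GFP samples, no peak in the Ezh2 samples and 5.31 and 5.09 in the Ezh2-Y726D samples. It was the only crystallin region lost in Ezh2 against GFP and in Ezh2 against Ezh2-Y726D, and 1.12% of all regions had a peak in all GFP and Ezh2-Y726D samples and in no Ezh2 sample.

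The other regions of the pair gave no calls. Regions 31, 32 and 40 had a peak in all lists at 27.4% to 65.6%, 81.7% to 95.4% and 56.1% to 77.6%. Region 39 was missing from Ezh2 replicate 1 alone and ranged from 7.11% to 26.8% elsewhere. Region 35 held a peak in GFP replicate 3 (25.8%) and Ezh2 replicate 3 (2.5%), and region 38 in Ezh2 replicate 2 (3.32%). Region 37 (chr5:113082856-113083099), 620 bp from Crybb3, was found in Ezh2 replicate 3 alone at 15.2% and a fold of 3.22.

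Of the γ-crystallin genes, Crygs encodes the γS-crystallin of the adult lens and Crygn the γN-crystallin, a relative of both families that is also transcribed in the retina. The Crygs window held 3 regions, and its start site was in no peak. Region 11 (chr16:22820766-22821299), inside the neighbour Tbccd1 and 9356 bp from Crygs, was the strongest on average, with percentiles of 77.1, 63.5 and 77.7 in the GFP samples, 85.1, 72.8 and 83.3 in the Ezh2 samples and 87.3 and 82.0 in the Ezh2-Y726D samples. As fold over background, the peaks measured 6.83, 5.97 and 6.97 in the GFP samples, 8.3, 6.46 and 7.41 in the Ezh2 samples and 9.15 and 8.0 in the Ezh2-Y726D samples. Region 10, inside Crygs, had percentiles of 82.5, 74.8 and 77.7 in the GFP samples, 74.5, 80.5 and 76.5 in the Ezh2 samples and 48.3 and 80.4 in the Ezh2-Y726D samples. In both the groups overlapped or differed without passing the threshold (lowest limma adjusted p = 0.256 for region 11 and 0.308 for region 10), and region 9 was missing from Ezh2 replicate 1 alone, at 23.8% to 84.2% elsewhere.

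The Crygn window held 5 regions, 2 of them in all lists. Region 17 (chr5:24750324-24752358), the widest crystallin region at 2035 bp, covered the 3′ end of Crygn with percentiles of 83.5, 80.3 and 87.1 in the GFP samples, 77.5, 74.0 and 78.0 in the Ezh2 samples and 81.8 and 84.0 in the Ezh2-Y726D samples. The folds were 7.71, 7.77 and 8.42 in the GFP samples, 7.2, 6.59 and 6.75 in the Ezh2 samples and 8.14 and 8.31 in the Ezh2-Y726D samples. Ezh2 samples lay below GFP and Ezh2-Y726D samples, with a difference of −0.34 ± 0.15 (SE; adjusted p = 0.241) from GFP in limma that was not called. At the start site, region 18 (chr5:24757823-24758205) had a peak in GFP replicate 3, Ezh2 replicate 1 and both Ezh2-Y726D samples, at percentiles of 34.4%, 27.3%, 48.3% and 20.6% and folds of 4.01, 3.91, 5.02 and 3.64. Region 15, 8679 bp from Crygn, held a peak in all lists at 63.0% to 83.8% with no call. Region 16 was a peak of Ezh2-Y726D replicate 1 alone (35.0%) and region 19 of Ezh2 replicate 1 alone (33.5%).

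Taking the strongest peak of each gene as 1 value, limma called 0 of the 10 crystallin genes in each comparison. Of 17379 protein-coding genes scored in the same way it called 1.95% for Ezh2 against GFP, 2.89% for Ezh2-Y726D against GFP and 9.45% for Ezh2 against Ezh2-Y726D. At an unadjusted p under 0.05, the crystallin genes numbered 2, 0 and 4. The share of all genes at this unadjusted threshold was not counted, so these numbers have no background. The lowest adjusted p was 0.0995 (Cryba1), 0.306 (Cryaa) and 0.0932 (Cryba1) in the 3 comparisons. For Cryba1, Ezh2 differed from GFP by −1.07 ± 0.29 and from Ezh2-Y726D by −0.96 ± 0.33 (SE). These values mix 2 sites, because the strongest Cryba1 peak was region 7 in Ezh2 replicates 1 and 3 and region 8 in all other samples. The values of Crybb1 mix sites too, with region 27 strongest in Ezh2 replicate 1, region 24 in Ezh2 replicate 3 and region 30 elsewhere. For Crygn, Cryba2 and Crygs the strongest peak likewise changed between samples. Crybb2 and Crybb3 share region 33 as their strongest peak and are 1 measurement here. When peaks were ranked by −log10 p, the Ezh2 samples were called lower than GFP at 1 crystallin gene and lower than Ezh2-Y726D at 3. The share of all genes called under that ranking was not counted, and genes with overlapping windows can share a peak in this count.

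Related gene lists were read by the number of genes with a peak within 1 kb of a gene end. The 10 crystallin genes gave 4, 4 and 4 in the GFP samples, 5, 4 and 6 in the Ezh2 samples and 4 and 4 in the Ezh2-Y726D samples, where Crygn, Crybb1, Crybb3 and Cryab had such a peak in all 8 lists. Cryba2 is not among them because its annotated span reaches beyond the start site that lay in a peak. The γ-crystallin cluster of chromosome 1 (Cryga to Crygf), whose genes are transcribed in lens fibre cells, gave 0, 1 and 1, then 1, 1 and 2, then 1 and 1 of 6, and Crygb, Crygc, Cryge and Crygf had none in any list. Crybg1, Crybg2 and Crybg3, which share the crystallin fold but act outside the lens, gave 3 of 3 in every list except that of Ezh2-Y726D replicate 1, with 2. The small heat shock genes related to the α-crystallins (Hspb1, Hspb2, Hspb3, Hspb6, Hspb7 and Hspb8) gave 6 of 6 in all 8 lists.

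Transcription factors of the lens, most of which retinal cells use too, gave 8 to 9 of 10 in each list. Lens fibre genes gave 5, 5 and 6 of 10 in the GFP samples, 7, 7 and 8 in the Ezh2 samples and 5 and 6 in the Ezh2-Y726D samples. The Ezh2 samples thus lay above all others, with a two-sided exact permutation p of 0.1 against either group, the smallest that these samples allow. The same test also gave 0.1 for rod markers, lower in Ezh2 than GFP. It gave 0.1 for T cell markers in both comparisons with Ezh2-Y726D and for microglial markers in Ezh2 against Ezh2-Y726D. These p-values were not adjusted for the number of lists, and genes with such a peak were not counted over all genes for comparison. The Ezh2 samples held 126271 to 135895 peaks, the GFP samples 112939 to 133674 and the Ezh2-Y726D samples 124666 and 128728. The part of list length in these gene counts was not tested. Bfsp1, Bfsp2, Grifin and Mip had a peak in all 8 lists, whereas the fibre gene Lenep had none in any. Lgsn had a peak in all Ezh2 and Ezh2-Y726D samples and no GFP sample, and Lim2 in all GFP and Ezh2 samples and no Ezh2-Y726D sample. The study's methods state that the needle was guided so as not to injure the lens, and the part of lens cells in the crystallin peaks was not tested.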

How the data were processed

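Peaks were called by the authors in each ATAC-seq sample separately and deposited as 1 narrowPeak list per sample, in build GRCm38. The submitters' processing notes name cutadapt, Bowtie2, SAMtools, Picard, MACS2 and deepTools, and their versions are not given in the sources used here. Deposited with each peak is a fold, the ratio of its summit pileup to local background. Its −log10 p and −log10 q are those of the authors' peak caller, and the deposited score, which is −log10 q rescaled, was not used. Lists hold no read counts, so the count test of the study could not be run. The lowest −log10 q was 1.31 to 1.38 across lists.

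Samples were grouped by their titles. Gene spans and start sites were those of RefSeq for GRCm38.p6. Peaks sharing 1 bp were merged, the highest fold per list and region was kept, and percentiles were taken within lists. Normal scores were compared with limma 3.58.1 (R 4.3.3; lmFit and eBayes, 3 groups in 1 fit, no covariate), with Benjamini-Hochberg adjustment over all regions or genes. Single values per sample were compared by two-sided exact permutation tests. Scripts ran in Python 3.11.15 (numpy 2.4.6, scipy 1.17.1, pandas 2.3.3) and were tested on simulated data. Alternatives were ranks by −log10 p, −log10 q of at least 5, lists of equal length, a peak covering at least 0.5 of a region, regions in at least 5 lists, windows of 0 and 25 kb, each sample left out, and a replicate block.

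The genes, lists and motifs were chosen with earlier results of these data known. Named with values in each sample were the regions called, gained or lost, the strongest of each gene, and those within 1 kb of a gene end. Regions 3 and 10 fall outside this rule and were added with their values known. The other regions are given by ranges or counts of samples.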

Additional observations from a re-analysis of the deposited data

How the results depend on the processing

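Depth is unknown, and 2 Ezh2-Y726D samples limit every comparison with that group. Direction turned in 5 values. Region 28 for Ezh2 against Ezh2-Y726D became 0.33 when ranked by −log10 p. The difference in crystallin regions with a peak per sample, 0.667 for Ezh2 against GFP, became −1 with lists of equal length, −0.33 with gene bodies alone and −0.5 without Ezh2 replicate 3. That for Ezh2-Y726D against GFP (−2.5) became 0.167 under a required cover of 0.5 of each region. The cause was not tested for these or for the values that follow.

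In each sentence, sets of 3 counts give both comparisons with GFP, that of Ezh2 first, and then Ezh2 against Ezh2-Y726D. Ranked by −log10 p, crystallin regions called higher numbered 2 (Ezh2 against GFP) and 0 (Ezh2-Y726D against GFP), crystallin genes called lower 1 (Ezh2 against GFP) and 3 (Ezh2 against Ezh2-Y726D), and all regions called lower in Ezh2-Y726D than GFP 4926. Shares of all genes called are not given for this or the other alternatives. At −log10 q of at least 5, Ezh2 against GFP gave 0 crystallin regions higher, 3 lower, 1 gained and 0 lost, Ezh2 against Ezh2-Y726D 2 lost, and Ezh2-Y726D against GFP 2098 of all regions lower. With lists of equal length, 3 crystallin regions were lower in Ezh2 than GFP and 2 lost in Ezh2 against Ezh2-Y726D.

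With a peak covering at least 0.5 of a region, 0 crystallin regions were higher in Ezh2 than GFP, 2 were gained and 1 lost in Ezh2-Y726D against GFP, and 3 lost in Ezh2 against Ezh2-Y726D, while all regions called higher fell to 319, 986 and 1985 and lower to 541, 1065 and 2335. With a peak in at least 5 lists, all regions called higher numbered 1752 for Ezh2 and 1466 for Ezh2-Y726D against GFP. With gene bodies alone (16 regions), 0 crystallin regions were higher in Ezh2-Y726D than GFP and 1 lower in Ezh2 than Ezh2-Y726D, 0 gained and 0 lost in Ezh2 against GFP, 1 lost in Ezh2-Y726D against GFP, and 1 gained and 0 lost in Ezh2 against Ezh2-Y726D. With 25 kb on each side (77 regions), 2 were higher in Ezh2-Y726D than GFP, 2 lost in Ezh2 against GFP, 1 gained and 4 lost in Ezh2-Y726D against GFP, and 7 gained and 2 lost in Ezh2 against Ezh2-Y726D.

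Leaving out 1 sample at a time, crystallin regions called higher ranged from 0 to 1, 1 to 2 and 0 to 0, and lower from 0 to 2, 0 to 0 and 2 to 5. Without Ezh2-Y726D replicate 1 or 2, those lower in Ezh2 than Ezh2-Y726D numbered 2. Gained regions ranged from 2 to 2, 0 to 1 and 4 to 5, lost regions from 1 to 2, 2 to 3 and 1 to 2, and crystallin genes called lower in Ezh2 than Ezh2-Y726D from 0 to 2. The difference in crystallin regions with a peak per sample ranged from −0.5 to 1.67 for Ezh2 against GFP. Over all regions, called higher ranged from 269 to 917, 273 to 2424 and 2210 to 4718, called lower from 670 to 1672, 938 to 3083 and 1620 to 4708, gained from 5173 to 9522, 9052 to 18523 and 17007 to 20772, and lost from 3183 to 5357, 8970 to 12430 and 11652 to 21293.

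The labels give groups the same replicate numbers. Deviations of same-numbered samples from their group means had correlations from −0.0151 to 0.0478. When samples were matched by the number in the peak name instead, the correlations ran from 0.0018 to 0.0478. Samples with different numbers were not correlated for comparison, and whether same-numbered samples were prepared together was not tested. With the replicate block, 0 crystallin regions were lower in Ezh2 than GFP. With a replicate block by the number in the peak name, chosen after seeing the data, 0 crystallin regions were higher and 0 lower in Ezh2 than GFP, and all regions numbered 652 higher and 1305 lower for Ezh2 and 1347 higher and 1897 lower for Ezh2-Y726D against GFP.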
